A study of Mus musculus with 30 samples.

Results

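The phagocyte NADPH oxidase and the inducible nitric oxide synthase make the reactive oxygen and nitrogen species that macrophages and neutrophils release, and 6 of their genes were followed through tumours of mice given oxaliplatin with or without prior antibiotics. The members were chosen by symbol: Cybb, Cyba, Ncf1, Ncf4, Rac2 and Nos2. Each symbol was matched to 1 row of the array, so all 6 members were among the 19938 genes tested and none was lost to a filter. No measured value entered the list itself, but it was chosen with earlier results of these data known.

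The oxidase has a membrane core of Cybb, the flavin- and haem-carrying catalytic chain known as gp91phox or NOX2, and Cyba, the small chain p22phox that stabilises it. On activation the cytosolic proteins Ncf1 (p47phox, the organiser) and Ncf4 (p40phox, which binds membrane phosphoinositides) join the core together with the GTPase Rac2, and electrons pass from NADPH to oxygen to form superoxide. Nos2 makes nitric oxide from arginine and is known for its induction in macrophages by bacterial products and interferon gamma. Myeloid cells within tumours are known users of both systems, and Cyba and Rac2 are also made by other blood cells, lymphocytes among them.

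The tumours grew from the murine T lymphoma line EL4, placed under the skin of the flank (500000 cells per mouse). Antibiotic mice, labelled ABX, had received a cocktail of antibiotics for 3 weeks before the tumour cells, and the other mice, labelled H2O, had received none. The labels describe the same intraperitoneal dose of oxaliplatin, a platinum drug that damages DNA, for all groups: 10 mg per kg on day 7 of tumour growth. Tumours were taken 0, 6 or 18 h after the injection, and whether mice of the 0 h groups had already been injected is not stated beyond that time. There are 6 groups of 5 arrays: ABX and H2O at each time. The labels mark the mice or tumours WT and give no strain, sex, age or composition of the cocktail, and 1 tumour line was used. The series asked how antibiotics shape tumour gene expression before and early after the drug. No array is labelled as a tumour without oxaliplatin at 6 or 18 h, so a drug effect and any other change over those hours cannot be told apart.

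Values are log2 expression as deposited, from 1 array of whole-tumour RNA per sample, and array medians lay between 7.253 and 7.365. Cd3e, a chain of the T cell receptor complex, had group means at 18 h of 11.23 in ABX and 11.36 in H2O tumours. Not every T cell marker was high: Cd8a had group means of 6.518 and 6.494 there, below every array median. Whole-tumour RNA does not tell the lymphoma cells from other T cells. ABX 6 h array 5 stood apart from the other 4 of its group. The mean of 16 macrophage markers was 0.244 there and -0.386 to -0.231 on the other 4 arrays, relative to the average of all arrays, and the mean of 8 skeletal muscle markers was 1.511 there and -0.641 to 0.107 on the others. The mean of 7 keratinocyte markers reached 2.129 on ABX 6 h array 1 and 2.214 on 1 H2O array at 6 h. Member calls that changed without ABX 6 h array 5 are given with and without it. So are the 6 h differences of Cybb, Ncf1 and Nos2. By limma's array quality weights, ABX 6 h array 3 had the lowest weight of all arrays, 0.24, and array 5 had 0.334. Leaving out array 3 took the genes passing between ABX and H2O tumours at 6 h from 752 to 192.

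Promoters of 3 members are printed, from 250 bases before the gene start to 30 bases after it. These were the members with an entry among the promoter sequences used. They come from RefSeq, build GRCm38.p6, all on the minus strand: Cybb at chrX:9469295-9469574, Ncf1 at chr5:134229596-134229875 and Cyba at chr8:122432911-122433190. No entry for Ncf4, Rac2 or Nos2 was among those sequences. Capitals mark matches to 5 motifs searched on both strands: GAGGAA, the core bound by the myeloid factor PU.1 and its ETS relatives, CCAAT, TTCNNNGAA, the STAT element, GGGANNNTC, an NF-kB core, and TATAAA.
Cybb: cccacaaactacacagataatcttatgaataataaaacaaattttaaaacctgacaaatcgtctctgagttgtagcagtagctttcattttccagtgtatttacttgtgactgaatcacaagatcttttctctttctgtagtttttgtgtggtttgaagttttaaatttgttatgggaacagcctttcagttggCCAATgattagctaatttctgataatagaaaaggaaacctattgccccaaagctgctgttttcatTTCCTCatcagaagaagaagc
Ncf1: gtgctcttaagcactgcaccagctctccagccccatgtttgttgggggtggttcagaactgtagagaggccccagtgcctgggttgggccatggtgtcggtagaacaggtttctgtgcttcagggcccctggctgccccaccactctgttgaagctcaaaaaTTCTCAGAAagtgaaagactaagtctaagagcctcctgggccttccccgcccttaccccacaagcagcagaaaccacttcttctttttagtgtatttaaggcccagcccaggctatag
Cyba: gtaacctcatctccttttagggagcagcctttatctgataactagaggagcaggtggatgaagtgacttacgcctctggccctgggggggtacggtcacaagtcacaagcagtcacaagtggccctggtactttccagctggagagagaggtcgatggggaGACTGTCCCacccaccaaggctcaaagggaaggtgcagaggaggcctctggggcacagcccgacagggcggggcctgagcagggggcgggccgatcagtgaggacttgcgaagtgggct
The Cybb window held CCAAT at -56 to -52 from the start and GAGGAA, read on the opposite strand, at 10 to 15. Ncf1 held TTCNNNGAA, which reads the same on both strands, at -88 to -80, and Cyba held GGGANNNTC on the opposite strand at -89 to -81. No matches overlapped, and TATAAA was in none of the 3 windows. Among 32851 promoter windows of the same length, 26% held GAGGAA, 36.1% CCAAT, 7.83% TTCNNNGAA, 13.4% GGGANNNTC and 13.1% TATAAA. The matches describe letters in these windows and were not tested as binding sites.

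At 18 h after oxaliplatin, 2 of the 6 members were lower in ABX than in H2O tumours, 1 from the membrane core (Cyba) and 1 from the cytosolic subunits (Ncf4). Over all genes 7.85% passed the same test, limma with adjusted p under 0.05, in either direction. All 6 members had a negative difference at 18 h, with a median of -0.28 against -0.0059 for all genes tested, and 4 of the 6 did not pass. In whole-tumour RNA, fewer cells that express a gene and less of its RNA per cell cannot be told apart.

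Cyba, the p22phox chain that every oxidase built on Cybb needs, had values of 10.40, 10.45, 10.32, 10.37 and 10.54 in ABX tumours at 18 h, against 10.65, 10.68, 10.64, 10.79 and 10.69 in H2O tumours. Every ABX array lay below every H2O array. The difference was -0.28 ± 0.055 on the log2 scale (SE), 1.21-fold lower in ABX tumours, with a limma adjusted p of 0.0026 and a 95% interval of -0.39 to -0.16. Earlier no such separation was seen. Cyba was 10.30, 10.22, 10.28, 10.44 and 10.31 in ABX tumours at 0 h, against 10.36, 10.35, 10.46, 10.37 and 10.38 in H2O tumours. At 6 h it was 10.43, 10.61, 10.79, 10.52 and 10.43 in ABX tumours, against 10.49, 10.50, 10.48, 10.57 and 10.48 in H2O tumours. The groups overlapped at both times, with differences of -0.075 ± 0.055 at 0 h and 0.056 ± 0.055 at 6 h (limma adjusted p = 0.965 and 0.577).

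Cybb, the catalytic chain, was more variable. At 18 h it measured 9.45, 10.36, 10.13, 10.05 and 10.12 in ABX tumours, against 10.03, 10.44, 10.20, 10.51 and 10.59 in H2O tumours. The ABX group was the lower on average, but 4 of its 5 arrays lay within the H2O range. The difference of -0.33 ± 0.23 did not pass (limma adjusted p = 0.481), and its 95% interval of -0.80 to 0.13 takes in both no difference and one larger than that of Cyba. At 0 h Cybb was 9.99, 9.28, 9.78, 10.13 and 9.51 in ABX tumours, against 9.64, 9.80, 10.34, 9.62 and 10.53 in H2O tumours. At 6 h it was 9.75, 9.27, 9.18, 9.33 and 10.65 in ABX tumours, against 9.75, 9.91, 9.86, 9.66 and 10.15 in H2O tumours. Array 5 of the ABX 6 h group had the highest Cybb value of all 30 arrays, while 3 others of its group lay below every H2O array of that time. The differences were -0.25 ± 0.23 at 0 h and -0.23 ± 0.23 at 6 h. With ABX 6 h array 5 left out the 6 h difference was -0.48, and it did not pass.

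Among the cytosolic subunits, Ncf4 gave the steadiest difference between the arms. The p40phox gene measured 9.02, 9.20, 9.27, 9.25 and 9.40 in ABX tumours at 18 h, against 9.50, 9.48, 9.59, 9.51 and 9.51 in H2O tumours, and the groups did not overlap. The difference was -0.29 ± 0.062, 1.22-fold lower in ABX tumours (limma adjusted p = 0.0044). At 0 h Ncf4 was 9.13, 9.07, 9.16, 8.97 and 9.13 in ABX tumours, against 9.25, 9.14, 9.33, 9.25 and 9.32 in H2O tumours. At 6 h it was 9.01, 9.07, 9.04, 9.02 and 9.35 in ABX tumours, against 9.25, 9.30, 9.12, 9.23 and 9.26 in H2O tumours. One H2O array at 0 h lay within the ABX range, and at 6 h the ABX arrays other than array 5 lay below every H2O array. The differences were -0.17 ± 0.062 at 0 h and -0.13 ± 0.062 at 6 h (limma adjusted p = 0.555 and 0.232). Without ABX 6 h array 5 the 6 h difference was -0.20 with a limma adjusted p of 0.0348. In that setting 1420 of all genes passed at 6 h, against 752 with all arrays. Averaged over the 3 times Ncf4 was lower in ABX tumours, with a difference of -0.20 ± 0.036 and an adjusted p of 0.000828.

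Ncf1, the p47phox organiser that carries the other cytosolic subunits to the membrane, was 7.39, 8.00, 7.93, 7.77 and 7.53 in ABX tumours at 18 h, against 7.92, 8.05, 7.88, 8.01 and 8.29 in H2O tumours. The lowest 3 of the 10 values were all from ABX tumours, and the other ABX values fell within the H2O range. The difference of -0.31 ± 0.12 was close in size to those of Cyba and Ncf4 but had a larger error and did not pass (limma adjusted p = 0.133; 95% interval -0.56 to -0.055). It was -0.20 ± 0.12 at 0 h and -0.13 ± 0.12 at 6 h. Ncf1 lay between 7.59 and 7.95 in ABX and 7.76 and 8.21 in H2O tumours at 0 h, and between 7.44 and 8.23 in ABX and 7.83 and 8.09 in H2O tumours at 6 h, so the groups overlapped at both times.

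Rac2, the GTPase that switches the assembled enzyme on in blood cells, had the smallest difference of the 6 members at 18 h. It measured 11.82, 11.87, 11.91, 11.92 and 11.95 in ABX tumours at 18 h, against 12.07, 12.01, 11.97, 11.94 and 11.93 in H2O tumours. The groups overlapped where the highest ABX array met the lowest H2O arrays, and the difference of -0.090 ± 0.050 did not pass (limma adjusted p = 0.341; 95% interval -0.19 to 0.012). Over the 30 arrays Rac2 stayed between 11.82 and 12.12. The differences at 0 h and 6 h were -0.065 ± 0.050 and 0.040 ± 0.050.

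Nos2 had the widest spread of the 6 members. At 18 h it was 8.00, 9.35, 9.02, 9.13 and 8.78 in ABX tumours, against 8.87, 8.91, 9.11, 8.79 and 9.67 in H2O tumours. At 0 h it was 8.70, 8.03, 8.85, 8.63 and 7.88 in ABX tumours, against 8.64, 8.98, 9.18, 8.17 and 9.61 in H2O tumours. At 6 h it was 8.29, 8.10, 8.33, 8.49 and 9.74 in ABX tumours, against 8.57, 9.13, 8.48, 8.60 and 9.15 in H2O tumours. The arms overlapped at every time, and ABX 6 h array 5 again held the highest value of all 30. The differences were -0.50 ± 0.29 at 0 h, -0.19 ± 0.29 at 6 h and -0.21 ± 0.29 at 18 h, none past the threshold (limma adjusted p = 0.851, 0.724 and 0.803). With ABX 6 h array 5 left out the 6 h difference was -0.48, and it did not pass. The 95% interval at 18 h, -0.80 to 0.38, leaves room for a change in either direction.

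**Figure D1:**
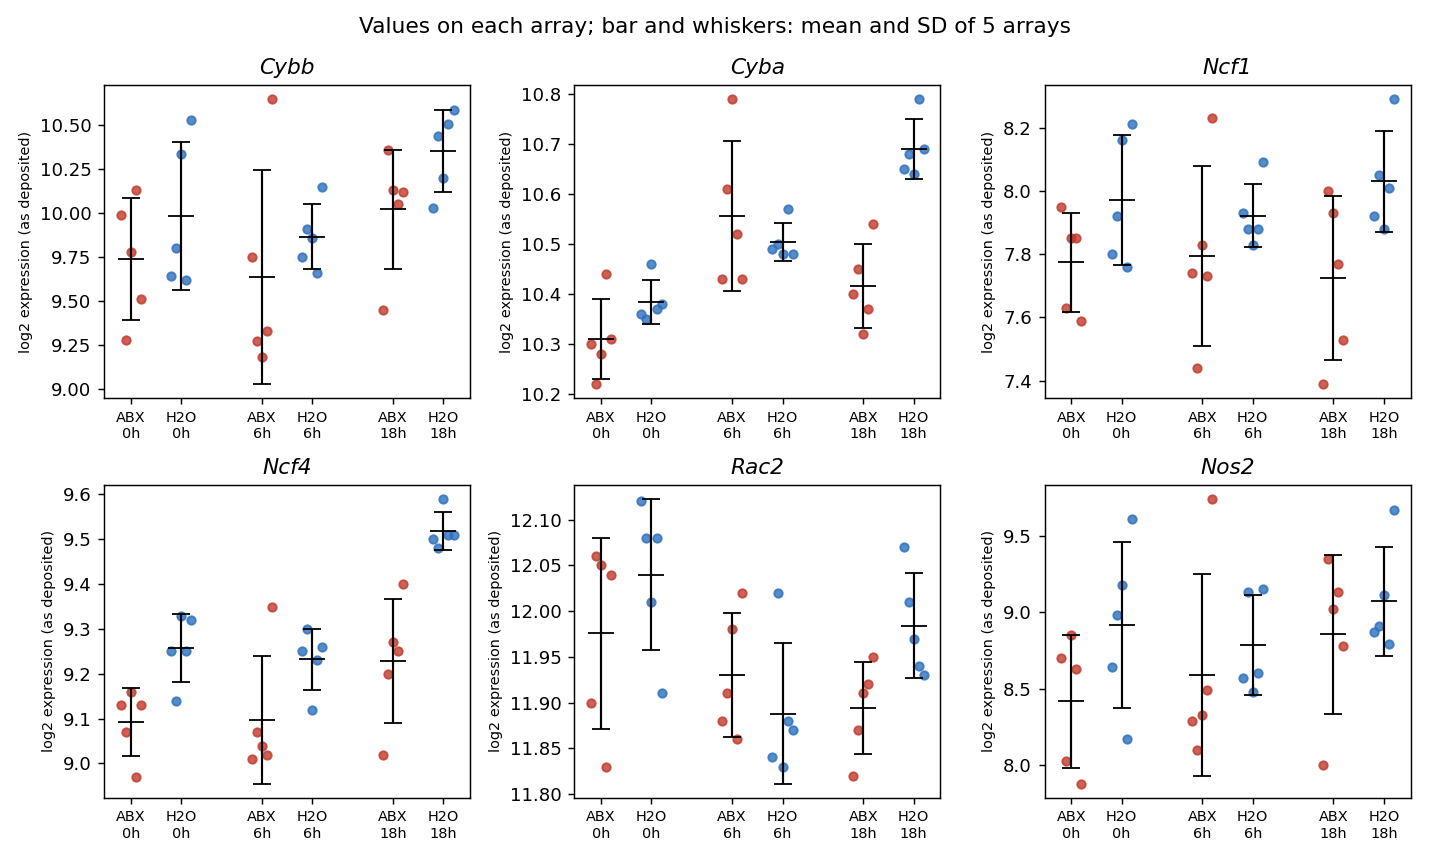
Deposited log2 value (vertical axis, a separate range for each gene) of the 6 members on each of the 30 arrays, ABX in red and H2O in blue, by hours after oxaliplatin; points are arrays and the bar with whiskers is the mean and SD of 5. At 18 h the ABX arrays of Cyba (10.32 to 10.54) and Ncf4 (9.02 to 9.40) lie below all H2O arrays (10.64 to 10.79 and 9.48 to 9.59), while those of Cybb, Ncf1, Rac2 and Nos2 overlap them.

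At 0 h, 0 of the 6 members passed between ABX and H2O tumours, where 0.0903% of all genes passed. At an unadjusted p under 0.05, 1 member and 1317 genes passed limma's test. At 6 h 0 members passed, against 3.77% of all genes, with 1 member and 3969 genes at an unadjusted p under 0.05. A pattern in which all ABX arrays lay below all H2O arrays was held by 0 members at 0 h and 0 at 6 h, against 0.762% and 3.42% of all genes, and by 2 members at 18 h, against 2.46%. All 6 differences were negative at 0 h and 4 of 6 at 6 h, where those of Cyba and Rac2 were positive. Averaged over the 3 times 1 member passed, Ncf4, where 6.65% of all genes passed. The averaged differences were -0.27 ± 0.13 for Cybb, -0.099 ± 0.032 for Cyba, -0.21 ± 0.071 for Ncf1, -0.038 ± 0.029 for Rac2 and -0.30 ± 0.17 for Nos2 (limma adjusted p = 0.258, 0.0571, 0.0736, 0.538 and 0.349). Without ABX 6 h array 5, Cybb (-0.36, adjusted p = 0.0308) and Ncf1 (-0.25, adjusted p = 0.0128) passed as well. The count over all genes also rose in that setting, from 1325 to 2251 of 19938.

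**Figure D2:**
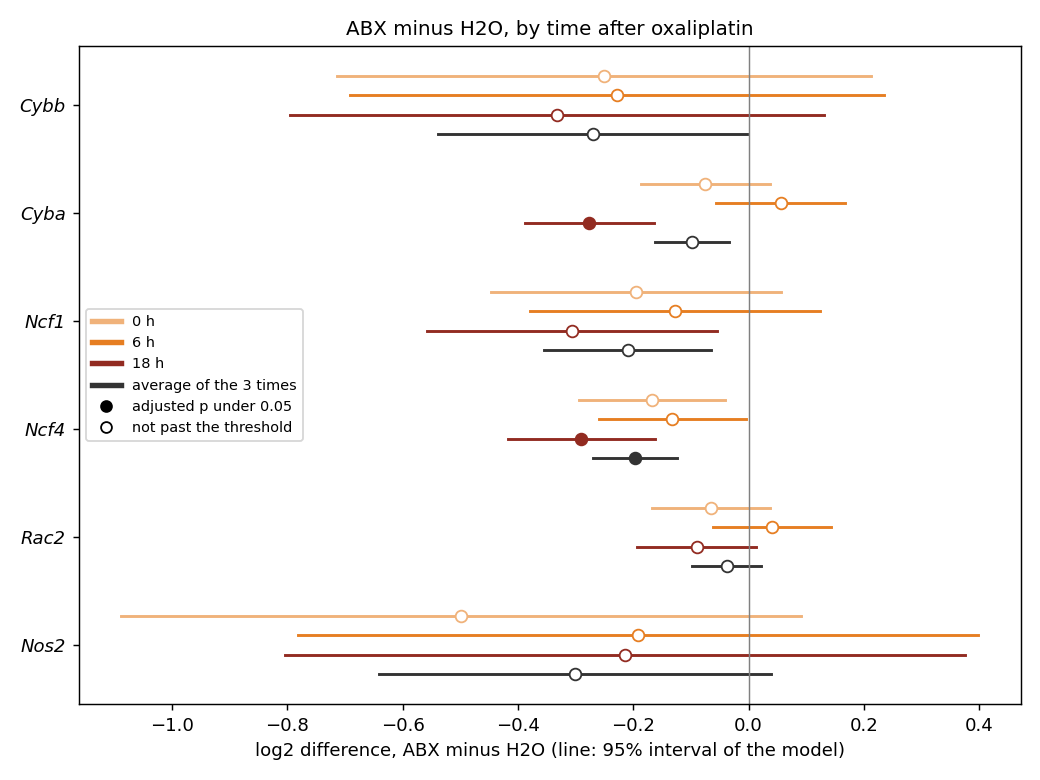
Difference between ABX and H2O tumours (horizontal axis, log2 scale, ABX minus H2O) for each member at each of the 3 times and as their average; lines are 95% intervals of the limma model and filled points have an adjusted p under 0.05. Cyba at 18 h (-0.28) and Ncf4 at 18 h (-0.29) and on average (-0.20) are filled, and the intervals of Cybb and Nos2 are the widest.

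With time after oxaliplatin in H2O tumours, Cyba and Ncf4 rose. Between 0 and 18 h Cyba was higher by 0.31 ± 0.055 (limma adjusted p = 0.000239, 1.24-fold) and Ncf4 by 0.26 ± 0.062 (adjusted p = 0.00436). These were 2 of 6 members, against 14.1% of all genes. For both genes every H2O array at 18 h lay above every H2O array at 0 h and at 6 h, patterns held by 4.53% and 3.61% of all genes. The other 4 did not pass: Cybb differed by 0.37 ± 0.23, Ncf1 by 0.059 ± 0.12, Rac2 by -0.057 ± 0.050 and Nos2 by 0.15 ± 0.29. Their 95% intervals reached 0.83 for Cybb and 0.74 for Nos2, so rises of that size are within the error.

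Most of the rise of Ncf4 in H2O tumours came after 6 h. From 6 to 18 h it was higher by 0.29 ± 0.062 (limma adjusted p = 0.00447) and Cyba by 0.19 ± 0.055 (adjusted p = 0.0262). Again 2 of 6 members passed, against 9.58% of all genes. The call of Cyba was lost when H2O 6 h array 1, 3 or 5 or H2O 18 h array 4 was left out, with adjusted p-values of 0.0501 to 0.0608. Between 0 and 6 h 0 members passed, against 1.11% of all genes, with 2 members and 2113 genes at an unadjusted p under 0.05. Those were Cyba (0.12 ± 0.055, adjusted p = 0.429) and Rac2 (-0.15 ± 0.050, adjusted p = 0.167). For Cyba every H2O array at 6 h lay above every H2O array at 0 h, and the share of all genes with that pattern was not computed. The comparisons of 6 h and of 18 h with 0 h share the 0 h arrays.

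In ABX tumours no member passed between any 2 times by limma. From 0 to 18 h 0 of 6 passed, against 1.22% of all genes, and the differences were 0.11 ± 0.055 for Cyba, 0.14 ± 0.062 for Ncf4, 0.28 ± 0.23 for Cybb, -0.052 ± 0.12 for Ncf1, -0.082 ± 0.050 for Rac2 and 0.44 ± 0.29 for Nos2. The largest of these, that of Nos2, had a 95% interval of -0.15 to 1.03. From 0 to 6 h 0 of 6 passed, against 0% of all genes. Cyba had a difference of 0.25 ± 0.055 there (limma adjusted p = 0.143, 1 member and 2011 genes at an unadjusted p under 0.05), and the smallest adjusted p of any gene was 0.138. From 6 to 18 h 0 passed, against 2.12% of all genes, and Cyba had a difference of -0.14 ± 0.055 and Ncf4 of 0.13 ± 0.062 (adjusted p = 0.18 and 0.294). At an unadjusted p under 0.05 the counts were 1 member and 2223 genes from 0 to 18 h, and 2 members and 3196 genes from 6 to 18 h.

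A pass in H2O and none in ABX tumours does not show that the arms changed unequally, so that difference was tested itself. The interaction of antibiotics with the change from 0 to 18 h was -0.20 ± 0.077 for Cyba (limma adjusted p = 0.355) and -0.12 ± 0.088 for Ncf4 (adjusted p = 0.768). It passed for 0 of 6 members, against 0.105% of all genes, with 1 member and 1893 genes at an unadjusted p under 0.05. For the change from 0 to 6 h it passed for 0 members and 0% of all genes, with 0 members and 1964 genes at an unadjusted p under 0.05, and Cyba stood at 0.13 ± 0.077 (adjusted p = 0.569). The 95% interval of the 18 h interaction ran from -0.36 to -0.043 for Cyba and from -0.30 to 0.057 for Ncf4.

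**Figure D3:**
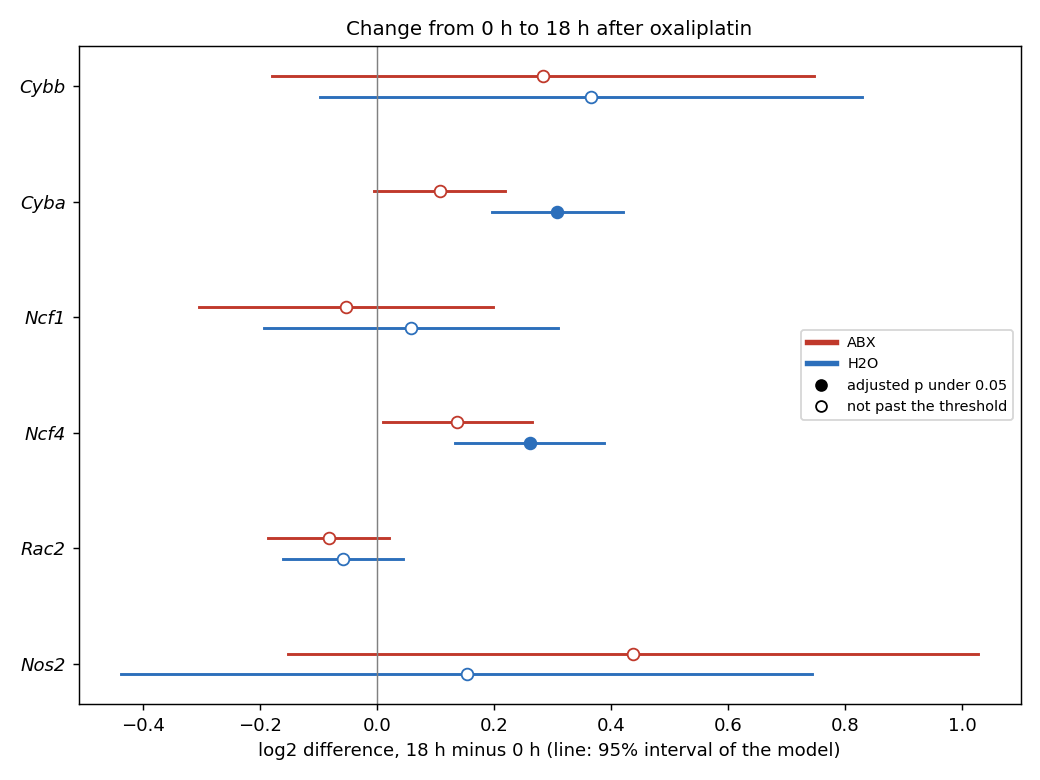
Difference between 18 h and 0 h after oxaliplatin (horizontal axis, log2 scale, 18 h minus 0 h) for each member in ABX (red) and H2O (blue) tumours; lines are 95% intervals of the limma model and filled points have an adjusted p under 0.05. Cyba (0.31) and Ncf4 (0.26) are filled in H2O tumours, and the ABX values of the same genes are 0.11 and 0.14.

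In order of group means, Cyba was highest in H2O at 18 h (10.69 ± 0.057, SD of 5), followed by ABX at 6 h (10.56 ± 0.15), H2O at 6 h (10.50 ± 0.037), ABX at 18 h (10.41 ± 0.084), H2O at 0 h (10.38 ± 0.042) and ABX at 0 h (10.31 ± 0.082). Neighbours in this order overlapped in their array values. For Ncf4 the order was H2O at 18 h (9.52 ± 0.040), H2O at 0 h (9.26 ± 0.077), H2O at 6 h (9.23 ± 0.070), ABX at 18 h (9.23 ± 0.14), ABX at 6 h (9.10 ± 0.14) and ABX at 0 h (9.09 ± 0.076). Here H2O at 18 h stood clear of its neighbour, and the other neighbours overlapped. Group means of Cybb ran from 9.64 ± 0.61 in ABX at 6 h to 10.35 ± 0.23 in H2O at 18 h, those of Ncf1 from 7.72 ± 0.26 in ABX at 18 h to 8.03 ± 0.16 in H2O at 18 h and those of Nos2 from 8.42 ± 0.43 in ABX at 0 h to 9.07 ± 0.35 in H2O at 18 h. Rac2 ran from 11.89 ± 0.079 in H2O at 6 h to 12.04 ± 0.083 in H2O at 0 h. In these 4 genes every group overlapped its neighbours in the order.

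The 6 members fell into a variable and a steady set. The residual SD within groups was 0.487 for Nos2, 0.381 for Cybb and 0.204 for Ncf1, larger than in 99.1%, 98.5% and 92.4% of all genes. It was 0.0979 for Ncf4, 0.0839 for Cyba and 0.0754 for Rac2, below the median gene (0.115). The 3 variable genes also varied together. Over the 30 arrays, as deviations from group means, Cybb and Ncf1 had a Pearson r of 0.83 and a Spearman rho of 0.79 (permutation p = 1e-05 for both, the smallest the permutations can give, adjusted p = 8.2e-05 over 33 pairs), and r was 0.76 without the 2 arrays farthest from the median. Cybb and Nos2 had r = 0.85 and rho = 0.77 (permutation p = 2e-05 and 7e-05, adjusted 0.00013 and 0.00046), and Ncf1 and Nos2 r = 0.88 and rho = 0.83 (permutation p = 1e-05 for both, adjusted 8.2e-05). Without the 2 farthest arrays these were 0.76 and 0.85. Cybb and Cyba, the partners of the membrane core, had r = -0.10 and rho = 0.14 (permutation p = 0.73 and 0.53). Ncf4 and Nos2 had r = 0.57 and rho = 0.48 (permutation p = 0.015 and 0.017, adjusted 0.048 and 0.056), which fell to 0.28 without the 2 farthest arrays and so rests on them.

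Macrophage markers moved with the same 3 genes. The mean of 16 macrophage markers, none of them a member, had r = 0.87 and rho = 0.84 with Cybb, and r = 0.84 and rho = 0.80 with Ncf1 (permutation p = 1e-05 for each, adjusted 8.2e-05 over the 33 pairs). With Nos2 it had r = 0.76 and rho = 0.64 (permutation p = 0.00016 and 0.00099, adjusted 0.00088 and 0.0054). Without the 2 arrays farthest from the median of the marker mean r was 0.80 for Cybb, 0.79 for Ncf1 and 0.64 for Nos2. With Ncf4 r was 0.38 and rho 0.20 (permutation p = 0.09 and 0.34), with Cyba -0.01 and 0.12 (0.97 and 0.59) and with Rac2 -0.34 and -0.36 (0.093 and 0.077). The mean of 13 neutrophil markers had r = 0.63 and rho = 0.57 with Cybb, 0.68 and 0.54 with Ncf1 and 0.62 and 0.50 with Nos2 (adjusted permutation p = 0.0059 and 0.013, 0.0028 and 0.018, and 0.0099 and 0.033), with r at 0.44, 0.52 and 0.41 without the 2 farthest arrays. With Ncf4 it had r = 0.55 and rho = 0.36 (permutation p = 0.017 and 0.069, adjusted 0.05 and 0.15), and r was 0.24 without the 2 farthest arrays. With Cyba r was -0.17 and rho -0.05 and with Rac2 0.01 and -0.01 (permutation p = 0.51 and 0.81, and 0.95 and 0.97). T cell markers, some of which T lymphoma cells can carry themselves, passed with no member, and their r ran from -0.10 for Cyba to 0.48 for Cybb.

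**Figure D4:**
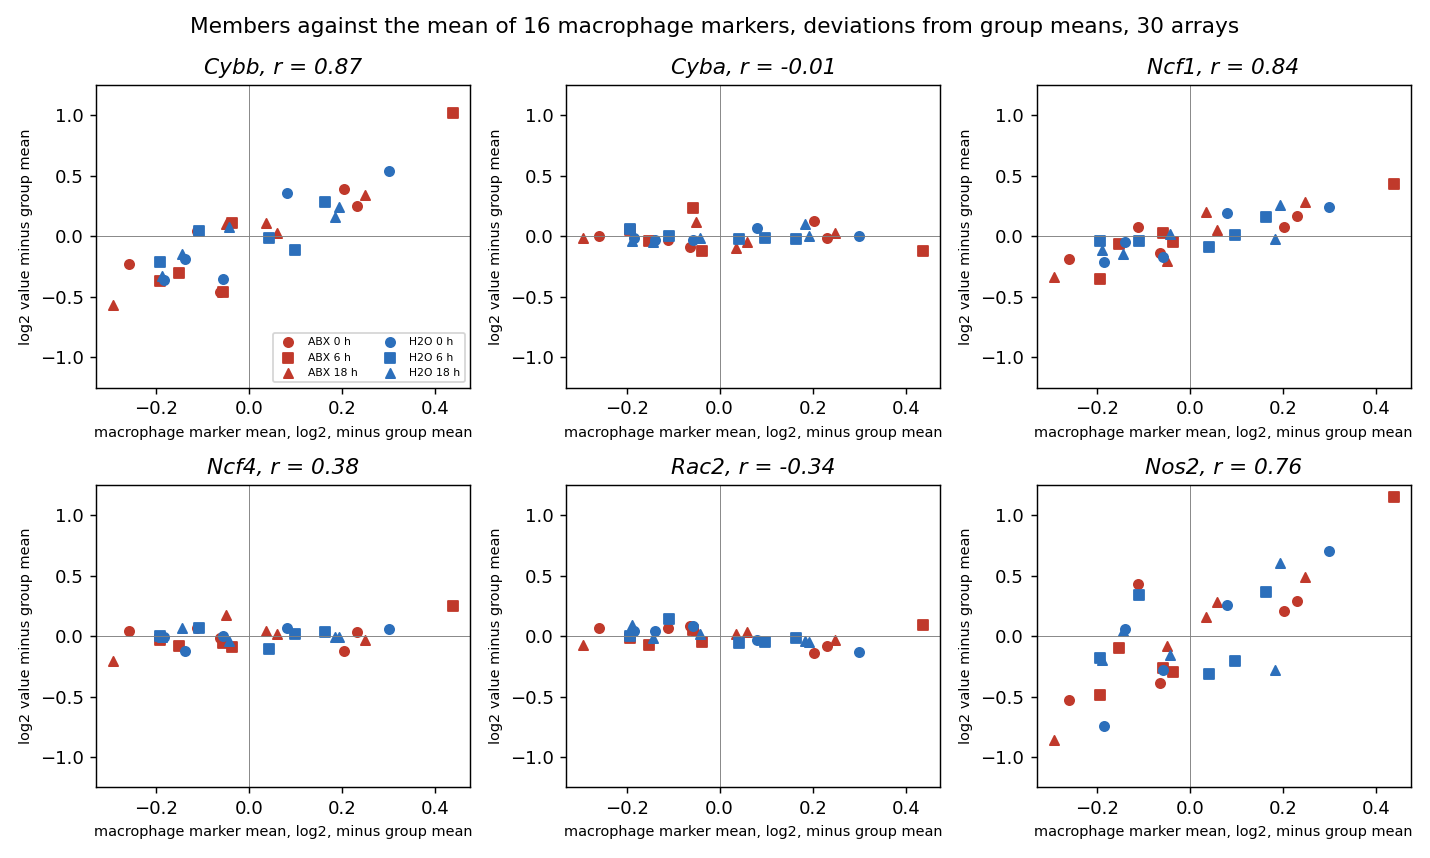
Each member (vertical axis, log2 value minus its group mean) against the mean of 16 macrophage markers (horizontal axis, log2, minus its group mean) on the 30 arrays, ABX in red and H2O in blue, with a symbol for each time. Cybb (r = 0.87), Ncf1 (r = 0.84) and Nos2 (r = 0.76) climb with the marker mean, Cyba (r = -0.01) lies flat, and the rightmost point is ABX 6 h array 5.

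Some macrophage markers and markers of other cell types differed between the arms beside the members. At 18 h 4 of 16 macrophage markers were lower in ABX tumours and 0 higher, where 7.85% of all genes passed: Cd68, a lysosomal membrane protein (-0.53 ± 0.10), C1qb, a chain of complement C1q (-0.51 ± 0.11), Mertk, a receptor for dying cells (-0.57 ± 0.16), and Ctss, the protease cathepsin S (-0.48 ± 0.15). Their adjusted p-values by limma were 0.00197, 0.00476, 0.0255 and 0.0398. The list median was -0.40, against -0.0059 for all genes. The marker mean ran from -0.395 to 0.146 in ABX tumours at 18 h (median -0.067) and from 0.083 to 0.465 in H2O tumours (median 0.229), and it differed by -0.37 ± 0.13. At 0 h and 6 h it differed by -0.20 ± 0.13 and -0.23 ± 0.13. Neutrophil markers had 0 of 13 past the threshold at 18 h and a mean difference of -0.072 ± 0.11. Of 8 T cell markers 2 were lower in ABX tumours at 18 h, Cd3d (-0.19 ± 0.050) and Cd4 (-0.31 ± 0.095), and their mean differed by -0.14 ± 0.043. Of 7 mast cell and eosinophil markers 2 were lower, Tpsb2 (-0.33 ± 0.077) and Fcer1a (-0.33 ± 0.10), and their mean differed by -0.17 ± 0.050. Of 5 B cell markers 1 was lower, Cd79b (-0.35 ± 0.071), with a mean difference of -0.12 ± 0.053. Fibroblast markers had 0 of 7 past the threshold and a mean difference of -0.23 ± 0.11. The part of these other lists in the members' differences was not tested.

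With the macrophage marker mean as a term of the model, Cyba at 18 h differed by -0.28 as before (limma adjusted p = 0.0147), and Ncf4 by -0.22 with an adjusted p of 0.0603. The call of Ncf4 averaged over the times was lost as well (-0.15, adjusted p = 0.0535). The differences of Cybb, Ncf1 and Nos2 at 18 h turned positive, at 0.29, 0.016 and 0.48, none past the threshold. Since the marker mean itself differed between the arms, this fit does not separate the 2. In H2O tumours from 0 to 18 h both calls held with the same term, at 0.31 for Cyba and 0.23 for Ncf4 (adjusted p = 0.000474 and 0.012), and 3 of 16 macrophage markers rose, a share near the 14.1% of all genes: Lyz2 (0.47 ± 0.13), Mpeg1 (0.64 ± 0.19) and Ctss (0.44 ± 0.15). Over the same hours 3 of 7 endothelial markers, 2 of 7 mast cell and eosinophil markers, 2 of 8 T cell markers and 1 of 7 fibroblast markers rose. The mean differences of these lists were 0.19 ± 0.078, 0.19 ± 0.050, 0.055 ± 0.043 and 0.30 ± 0.11, against 0.18 ± 0.13 for macrophage markers. B cell (1 of 5) and erythroid markers (1 of 4) rose as well, with mean differences of 0.16 ± 0.053 and 0.13 ± 0.063. The means of neutrophil and NK cell markers differed by 0.16 ± 0.11 and 0.16 ± 0.075. Those of dendritic cell, keratinocyte and skeletal muscle markers differed by 0.0016 ± 0.055, -0.016 ± 0.42 and -0.26 ± 0.31.

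The genes most like each member were ranked by Pearson r of deviations from group means over the 30 arrays, among all genes tested, as a description. Cybb was followed most closely by Gm2a (0.94), Serpinb6a (0.94), Ifitm6 (0.94), Stom (0.93) and Lsp1 (0.93). Ncf1 was followed by Gfpt2 (0.93), Adgrd1 (0.92), Cfb (0.91), Csf1r (0.90), the receptor for the macrophage growth factor CSF1, and F13a1 (0.90). For Nos2 the list was Bnip3 (0.94), Ptgis (0.94), Fam102a (0.93), Nfil3 (0.92) and Id2 (0.91). The steady genes had more distant neighbours: Ncf4 had Tmem176b (0.82), Ccn4 (0.82), Plcb3 (0.81), Rnf19a (0.80) and Ephx1 (0.80), Cyba had Appbp2os (0.71), Vcpip1 (0.70), Klk1b9 (0.64), Serpinb9d (0.63) and Dlg2 (0.62), and Rac2 had Btg1 (0.74), Phf19 (0.68), Zer1 (0.68), Ube2v1 (0.67) and Hdhd5 (0.66).

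Partners that assemble or regulate the oxidase were measured for 11 genes. None passed between ABX and H2O tumours at 0, 6 or 18 h or on average by limma, and the list median at 18 h was -0.054. Rac1, the widely made relative of Rac2, differed by 0.020 ± 0.031 at 18 h (adjusted p = 0.842). In H2O tumours from 0 to 18 h 2 of 11 rose, Arhgdib, which holds Rac proteins in the cytosol (0.095 ± 0.031), and Pik3cg, a phosphoinositide 3-kinase of blood cells (0.16 ± 0.052), and Pik3cg also rose in ABX tumours (0.21 ± 0.052). The count in H2O tumours is near the share of all genes, 14.1%. The 9 genes of the other NADPH oxidases and their partners passed in 0 of the 12 comparisons, where 0% to 14.1% of all genes passed. Nox1, an oxidase catalytic chain best known in the colon, differed by -0.65 ± 0.34 at 18 h (adjusted p = 0.296) and Nox4 by 0.083 ± 0.094 (adjusted p = 0.749).

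Around Nos2, 11 of 12 genes of arginine use and nitric oxide synthesis were measured. Slc7a1, a cationic amino acid transporter that brings in arginine, was higher in ABX tumours by 0.31 ± 0.073 at 6 h and 0.30 ± 0.073 at 18 h (limma adjusted p = 0.0169 and 0.0117). Between 0 and 18 h it fell by 0.47 ± 0.073 in ABX tumours and fell by 0.51 ± 0.073 in H2O tumours. Arg1, the arginase that competes with Nos2 for arginine, differed by -0.44 ± 0.26 at 18 h, Slc7a2, another arginine transporter, by -0.45 ± 0.26, and Gch1, the first enzyme of the cofactor tetrahydrobiopterin, by -0.0058 ± 0.11, none past the threshold (adjusted p = 0.367, 0.383 and 0.991). Asl, which makes arginine, rose in H2O tumours by 18 h (0.24 ± 0.051).

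Enzymes that supply NADPH passed for 0 of 7 genes in each of the 12 comparisons, where the share of all genes ran from 0% to 14.1%. With so few genes, these counts do not show that the enzymes were unchanged. Of 7 enzymes that remove superoxide and peroxide, 1 was lower in ABX tumours at 18 h, the glutathione peroxidase Gpx1 (-0.29 ± 0.060, limma adjusted p = 0.00374), which also rose in H2O tumours by 18 h (0.19 ± 0.060). Averaged over the times, Gpx1 (-0.17 ± 0.035) and the extracellular superoxide dismutase Sod3 (-0.21 ± 0.064) were lower in ABX tumours. Over all genes 7.85% passed between ABX and H2O tumours at 18 h and 6.65% averaged over the times, in either direction. Of 8 transcription factors known at these genes, 2 were lower in ABX tumours at 18 h and 0 higher: Spi1, which encodes PU.1 (-0.50 ± 0.13, adjusted p = 0.0134), and Cebpa, a factor of myeloid differentiation (-0.29 ± 0.069, adjusted p = 0.00881). Averaged over the times the differences were -0.33 ± 0.073 for Spi1 and -0.14 ± 0.040 for Cebpa, both past the threshold. The list median at 18 h was -0.12, against -0.0059 for all genes. The part of cell makeup in these differences was not tested.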

How the data were processed

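The deposited table holds log2 values made by the authors, 28853 rows on each of 30 arrays. The submitters' processing notes name Partek 6.6, and the method of probe summary and normalisation was not given in the sources used here. Amplified total RNA was labelled with biotin and hybridised to Affymetrix arrays, per the labels. Values were used as deposited. Rows with 1 gene symbol in the platform's probe table were kept, and for genes with several such rows the one with the highest mean, which gave 19938 genes. The array's genome build is not named, so probe coordinates are left out.

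With limma 3.58.1 (lmFit, eBayes; R 4.3.3) a model was fitted with 6 group means and no covariate, with 24 residual degrees of freedom. The 12 comparisons were each adjusted over all genes by the Benjamini-Hochberg method, two-sided, with 0.05 as the threshold of the adjusted p. Errors are SEs of the model. Correlations used deviations from group means and 100000 permutations of arrays within groups, adjusted over 33 pairs. The script was tested on simulated data. The number of arrays limits the precision.

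All 6 members are named, with 8 fixed pathway genes where measured, up to 4 passing genes per other list and comparison by smallest p, and the 5 genes most correlated with each member. Members and lists were chosen with earlier results of these data known. Nothing in the labels says that every sample is a separate mouse, so the p-values cover only the spread seen between samples of a group, which may be technical. Sample numbers follow the groups and link none of them, so an order of handling and the group cannot be told apart. Alternatives covered scaling, row choice, filters, variance options, array weights, marker means as covariates and leaving out each array.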

Additional observations from a re-analysis of the deposited data

Results flagged for a closer look

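Within groups of 5 arrays, 5 of the 36 sets of values of a member and a group held an array whose gap to its nearest neighbour, as a share of the group's range, was above Dixon's critical value of 0.71. Chance alone gives this in about 1 of 20 groups. ABX 6 h array 5 did so for Nos2, at 9.74 with the next at 8.49 and the lowest at 8.10 (share 0.763), and for Ncf4, at 9.35 with the next at 9.07 and the lowest at 9.01 (share 0.808). That array also had the group's highest macrophage and skeletal muscle marker means, 0.244 and 1.511, whose part in these values was not tested. For Cyba, H2O 0 h array 3 was 10.46 (next 10.38, share 0.732) and H2O 6 h array 4 was 10.57 (next 10.50, share 0.766). For Rac2, H2O 6 h array 2 was 12.02 (next 11.88, share 0.718).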

How the results depend on the processing

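The call that Cyba and Ncf4 were lower in ABX tumours at 18 h held whichever of the 10 arrays was left out (-0.31 to -0.25 for Cyba and -0.33 to -0.24 for Ncf4), as did their rise from 0 to 18 h in H2O tumours. Among other settings, the macrophage marker mean as a covariate left 1 member called at 18 h and 0 averaged over the times. It left 903 and 634 of all genes called there. Keratinocyte and muscle means as covariates gave 3 at 18 h, with Ncf1 (-0.28, adjusted p by limma 0.0466), and 3 from 0 to 18 h in H2O tumours, with Cybb (0.52, adjusted p 0.0159). From 6 to 18 h in H2O tumours 3 passed with array weights or with the compared groups alone, with Cybb (0.52 and 0.49, adjusted p 0.0473 and 0.0267). Averaged over the times, 2 members passed after quantile normalisation, without the lowest 25% of genes by mean or with limma's trend and robust options, and 3 with array quality weights or with keratinocyte and muscle means as covariates. Array weights gave 1 member at 6 h and 1 from 0 to 6 h in H2O tumours, and subtracting array medians left 1 from 6 to 18 h in H2O tumours. The counts over all genes rose in these settings too. Array weights called 2251 genes averaged (main fit 1325), 1266 at 6 h (752), and in H2O tumours 815 from 0 to 6 h (222) and 3565 from 6 to 18 h (1910). Keratinocyte and muscle means called 1744 averaged, 1721 at 18 h (main fit 1566) and 3252 from 0 to 18 h in H2O tumours (2816). Subtracting array medians lowered the count from 6 to 18 h in H2O tumours to 1728. Leaving out 1 array moved the count between 0 and 1 at 6 h, 1 and 3 averaged over the times, 1 and 2 from 6 to 18 h in H2O tumours and 0 and 1 from 0 to 6 h in ABX tumours, and did not move the other counts. Over the times, Cyba passed without ABX 0 h array 4, ABX 6 h array 3 or ABX 18 h array 5 (adjusted p by limma 0.0321, 0.0065 and 0.0305), and Ncf1 without ABX 18 h array 2 (0.043). Cyba passed from 0 to 6 h in ABX tumours without ABX 6 h array 1 (0.0427).

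Signs turned for values that had not passed. With the macrophage mean as a covariate, ABX against H2O became 0.074 for Cybb at 0 h, and at 6 h 0.16 for Cybb, 0.074 for Ncf1 and 0.24 for Nos2. At 18 h it became 0.29, 0.016 and 0.48 for the same 3 genes, and averaged 0.17, 0.022 and 0.19. The change from 0 to 18 h in H2O tumours became -0.098 for Ncf1 and -0.18 for Nos2, that from 6 to 18 h -0.094 and -0.14, that from 0 to 6 h in ABX tumours 0.048 for Cybb, and the 18 h interaction 0.21 for Cybb and 0.042 for Ncf1. With keratinocyte and muscle means, the change from 0 to 6 h in H2O tumours became 0.14 for Cybb, 0.091 for Ncf1, 0.027 for Ncf4 and 0.23 for Nos2, and the 6 h interaction -0.28 for Cybb and -0.067 for Ncf1. With array weights, Rac2 at 6 h became -0.0045, the change from 0 to 6 h in ABX tumours -0.075 for Ncf1, -0.034 for Ncf4 and -0.022 for Nos2, that from 6 to 18 h 0.052 for Ncf1, and the 6 h interaction -0.13 for Cybb, -0.065 for Ncf1 and -0.026 for Ncf4. With array medians subtracted, the change from 0 to 6 h in ABX tumours became -0.0038 for Ncf1 and -0.017 for Ncf4, and the 6 h interaction -0.0078 for Cybb. The cause was not tested.

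Leaving out 1 array also turned signs, over these ranges. ABX against H2O ran from -0.0024 to 0.086 for Cyba at 6 h and from -0.34 to 2.3e-05 for Nos2 at 18 h. From 0 to 6 h in H2O tumours the ranges were -0.21 to 0.015 for Cybb, -0.10 to 0.012 for Ncf1, -0.058 to 0.00069 for Ncf4 and -0.32 to 0.042 for Nos2, and from 0 to 18 h -0.0073 to 0.12 for Ncf1 and -0.032 to 0.33 for Nos2. In ABX tumours they were, from 0 to 6 h, -0.35 to 0.016 for Cybb, -0.088 to 0.11 for Ncf1, -0.056 to 0.030 for Ncf4 and -0.11 to 0.30 for Nos2, and for Ncf1 -0.12 to 0.032 from 0 to 18 h and -0.16 to 0.035 from 6 to 18 h. The 6 h interaction ran from -0.23 to 0.14 for Cybb, -0.040 to 0.16 for Ncf1 and -0.028 to 0.065 for Ncf4, and the 18 h interaction from -0.22 to 0.061 for Cybb and -0.061 to 0.0071 for Rac2.

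Counts of passing genes over the whole table moved by over 1.5 times in every comparison but that of 18 h with 0 h in H2O tumours. For ABX against H2O, across settings and with 1 array left out, they were 18 (4 to 126; 7 to 32) at 0 h, 752 (9 to 1339; 192 to 1420) at 6 h, 1566 (600 to 1920; 771 to 1686) at 18 h and 1325 (634 to 2251; 1009 to 2251) averaged. In H2O tumours they were 222 (153 to 815; 119 to 191) from 0 to 6 h, 2816 (1949 to 3736; 2089 to 2732) from 0 to 18 h and 1910 (1416 to 3565; 1072 to 2060) from 6 to 18 h. In ABX tumours they were 0 (0 to 4; 0 to 17), 244 (46 to 569; 94 to 346) and 422 (0 to 677; 105 to 721), and for the interactions 0 (0 to 1; 0 to 1) at 6 h and 21 (6 to 121; 2 to 119) at 18 h. No paired analysis was possible because the sample numbers are not shared between groups.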
